A study of Mus musculus with 2 samples.

Results

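The genes of antigen presentation were described in RNA from small intestine crypts, the pits between villi where epithelial stem cells divide. Members were all symbols of the deposited table that start with H2- (31 genes) and 17 named genes of processing, loading and regulation, taking the row of highest mean for each symbol, in all 48 of 17216 genes. They were chosen by symbol and not by value. The data are bulk RNA-seq of 2 libraries from C57BL/6 mice, 1 labelled wild type and 1 labelled Eed knockout. Both carried AhCre, a Cre recombinase under a promoter that responds to the aryl hydrocarbon receptor, and both were given β-naphthoflavone, a ligand of that receptor, in 3 injections, with crypts taken 15 days later. The knockout genotype is AhCre with Eed fl/fl, so the knockout library also holds the RNA of any cell in which Cre was not active. Animal age and the number of mice per library were not given in the sources used here. EED belongs to the core of the Polycomb complex PRC2, which methylates histone H3 at lysine 27, and the question was which transcripts of the crypt change with its loss.

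The wild-type library held 6970733 reads and that of the knockout 5918162. There was no replicate, so no test was possible between genotypes. A gene counts as called, higher or lower, where its log2 ratio (knockout over wild type, on values plus 1) reached 1 in size and its mean reached 20 normalized reads. Reads are given as recovered from the deposited values, wild type first. Each ratio is after the authors' scaling and carries an exact 95% interval that covers counting error only. Eed itself, NM_021876, had 588 and 183 reads and was 3.08-fold lower (2.61 to 3.66). Crypt epithelium markers summed to 40178 and 38563 normalized reads, and none of 12 was called. Their ratios differed among themselves. Epcam had 2759 and 2566 reads, while the intestinal transcription factor Cdx2 had 1964 and 1015, 1.86-fold lower (1.72 to 2.0), the proliferation marker Mki67 was 1.56-fold lower (1.49 to 1.64), and Olfm4 and Lgr5, of stem cells, were 1.54-fold lower (1.45 to 1.64) and 1.36-fold higher (1.20 to 1.53). Markers of stroma and endothelium, 9 of 10 with a row, summed to 19.6 and 531 normalized reads, and leukocyte markers, 21 of 23 with a row, to 607 and 1082. The 3 stroma markers that reached a mean of 20 were collagens, and all were called higher. Col3a1 had 6 and 198 reads, Col1a1 1 and 155, and Col1a2 0 and 124. The other 6 were under the minimum. Among these Kdr had 2 and 21 reads, Des 2 and 8, Acta2 4 and 8, and Cdh5 4 and 5. Dcn had 0 and 1 reads and Pdgfra 1 and 0. The part of these other cells in the members' values was not tested.

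MHC class I molecules are heavy chains that pair with β2-microglobulin and show peptides from inside the cell to CD8 T cells. The peptides are cut by the proteasome, moved into the endoplasmic reticulum by the TAP transporter, trimmed there and loaded with the help of tapasin. MHC class II molecules show peptides from endosomes to CD4 T cells, and besides dedicated immune cells the epithelium of the small intestine is known to carry them. The non-classical class I molecules vary less between strains, and several are known ligands of intraepithelial or natural killer lymphocytes. In human cancer cell lines PRC2 is known to hold class I presentation genes silent.

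Few antigen presentation genes differed by 2-fold. Of 48 members 35 reached a mean of 20 and could be called, and 13 did not. Among the 35, 3 were called higher (Cd1d1, Nlrc5 and H2-Q10), where 11.2% of all 10879 genes tested were, and 2 were called lower (H2-M2 and H2-Bl), where 3.58% of all genes were. As shares of the members these are 8.57% and 5.71%, so the calls were about as frequent as over the whole table. The members' median log2 ratio was -0.25, against -0.11 over all genes tested, and 27 of 35 were below 0, as were 59.8% of all genes. With libraries scaled to their totals, 20 of 35 were below 0, and 43.8% of all genes. The classes differed in their values. The class I processing genes lay between -0.61 and -0.20, the class II molecules between -0.08 and 0.25, and the class I molecules spread from -1.97 to 1.13. In the authors' deposited table no member row had an adjusted p below 0.05, where 0.975% of all rows did. H2-Bl alone had an unadjusted p under that limit in the authors' deposited table, made with DESeq, with p = 0.0145 and an adjusted p of 0.615. Such p-values rest on a pair of libraries without replicates. In bulk RNA, fewer cells of a type and less RNA per cell cannot be told apart.

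**Figure D1:**
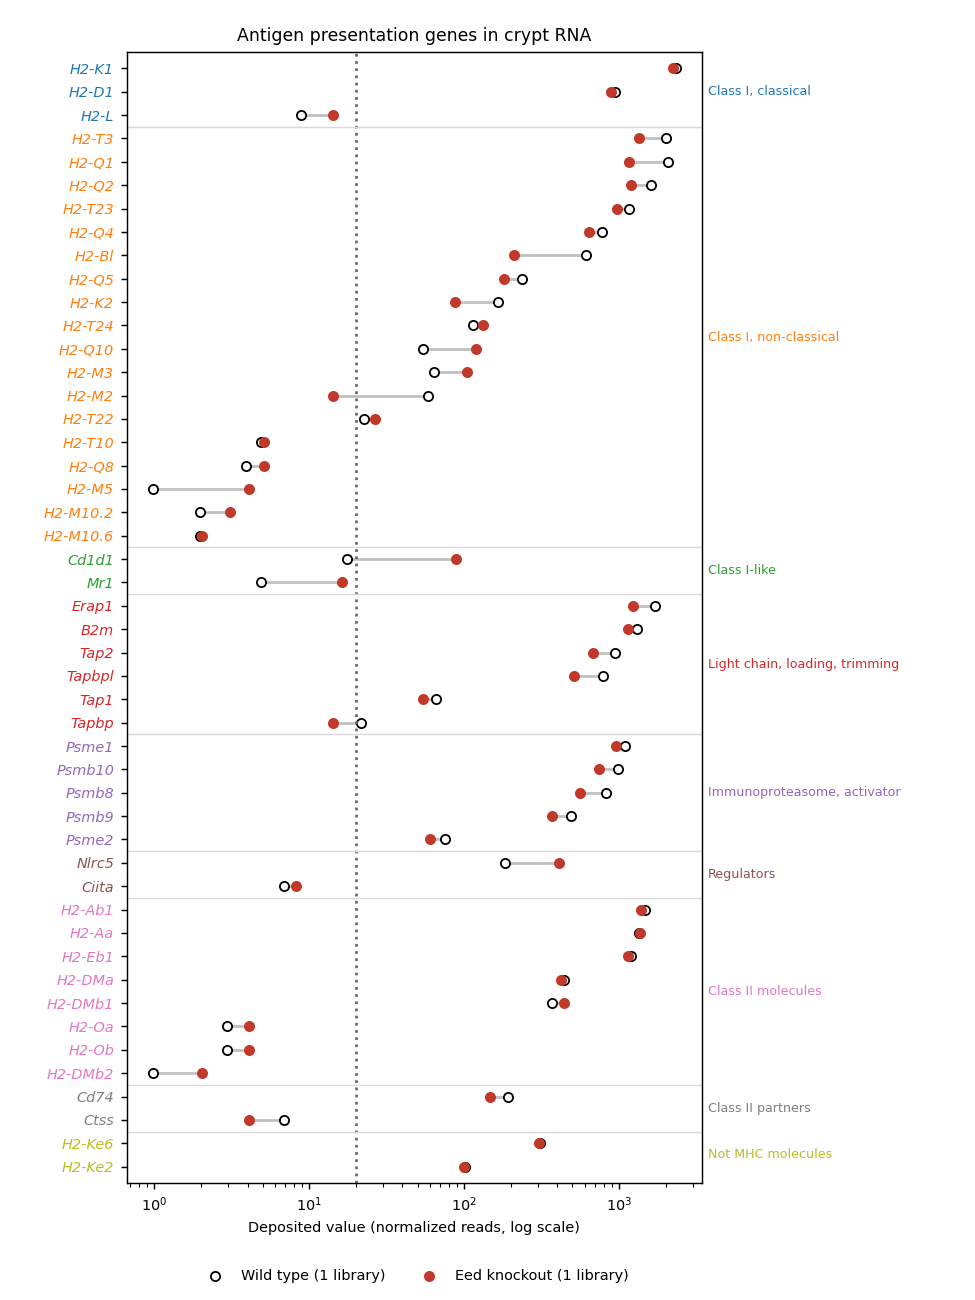
Deposited values of all 48 members in normalized reads on a log axis, with open circles for the wild-type library, filled circles for the Eed knockout library, and a dotted line at 20 normalized reads. Most circles of a pair overlap or lie close together, while the called members H2-Bl, H2-M2, Cd1d1, Nlrc5 and H2-Q10 are set apart. Some members under the minimum mean are set apart too, such as Mr1 at 4.90 and 16.3 and H2-M5 at 0.98 and 4.08 normalized reads.

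The classical class I heavy chains were close to equal in both libraries. H2-K1, the K heavy chain, had 2373 and 2174 reads, a ratio of 0.955 (0.900 to 1.01). H2-D1, the D heavy chain, had 958 and 872 reads, a ratio of 0.949 (0.865 to 1.04). Both intervals hold 1, and both ratios turned to above 1 under each of the other scalings. Per kilobase of transcript, H2-K1 stood at 1436 and 1371 normalized reads and H2-D1 at 446 and 424, so the K chain was the more abundant in both libraries. The third gene of the group, H2-L, had 8 and 13 reads. The haplotype of C57BL/6 is known to lack H2-L, and heavy chain genes share long stretches of sequence, so how reads were divided among such copies is uncertain for every H2 gene of class I.

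The promoters of both classical genes, B2m, H2-M3 and H2-Aa hold a pair of short motifs at a like distance. They are shown because these motifs are the known elements of MHC promoters, on which the regulators described further on act. The sequences are from RefSeq, build GRCm38.p6, which matched 33 of 48 members, and cover the 200 bases before the annotated start, 5′ to 3′. Capitals mark TGACG, the core of the X2 box, and ATTGG, the Y box bound by NF-Y, which together with a site for RFX proteins recruit NLRC5 or CIITA. Both strands were searched, so either motif may stand as its reverse complement.
H2-K1, chr17:34000348-34000547, minus strand: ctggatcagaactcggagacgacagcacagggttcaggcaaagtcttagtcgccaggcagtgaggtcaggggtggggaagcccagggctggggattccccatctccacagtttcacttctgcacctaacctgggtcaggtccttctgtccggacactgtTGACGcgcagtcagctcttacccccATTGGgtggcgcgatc
H2-D1, chr17:35262894-35263093, plus strand: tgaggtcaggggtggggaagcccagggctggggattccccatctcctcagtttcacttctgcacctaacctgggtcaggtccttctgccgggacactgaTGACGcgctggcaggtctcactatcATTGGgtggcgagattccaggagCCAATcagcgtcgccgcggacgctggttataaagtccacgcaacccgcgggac
B2m, chr2:122147487-122147686, plus strand: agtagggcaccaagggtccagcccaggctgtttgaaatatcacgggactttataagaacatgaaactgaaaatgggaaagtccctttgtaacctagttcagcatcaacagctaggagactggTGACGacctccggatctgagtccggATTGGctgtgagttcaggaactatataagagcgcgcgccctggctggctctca
H2-M3, chr17:37270034-37270233, plus strand: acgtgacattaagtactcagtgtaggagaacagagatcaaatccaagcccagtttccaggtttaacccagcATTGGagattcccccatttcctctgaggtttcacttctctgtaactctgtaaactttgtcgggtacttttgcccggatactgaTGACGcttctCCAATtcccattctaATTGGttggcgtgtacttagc
H2-Aa, chr17:34287824-34288023, minus strand: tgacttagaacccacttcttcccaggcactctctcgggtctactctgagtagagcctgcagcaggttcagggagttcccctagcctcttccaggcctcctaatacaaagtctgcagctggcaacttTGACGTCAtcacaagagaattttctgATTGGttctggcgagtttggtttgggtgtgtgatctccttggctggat
H2-T3, chr17:36190152-36190351, minus strand: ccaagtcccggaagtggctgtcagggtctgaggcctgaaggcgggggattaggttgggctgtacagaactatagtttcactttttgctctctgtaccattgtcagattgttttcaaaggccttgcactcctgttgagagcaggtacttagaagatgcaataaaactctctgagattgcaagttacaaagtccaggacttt
In the first 5 of these, TGACG was followed by ATTGG at a distance of 20 bases, or 21 in H2-Aa, where TGACG lies on both strands and overlaps itself. A spacing of 19 to 22 bases, a window chosen after the sequences were seen, occurred in the 250 bases before the start of 0.237% of 27025 genes, and in 5 of 33 matched members. TGACG alone was in 12 of the 33 and in 19.8% of all genes, and ATTGG in 22 and 37.5%, with all 7 class II molecules among them. The promoter of H2-T3, shown for contrast, holds neither motif in the bases printed. Genes without an exact match to either motif went both ways: H2-Q10, called higher with a log2 ratio of 1.13, also held neither in the 250 bases. H2-M2, called lower at -1.97, held both there, but not as the spaced pair. The log2 ratios of the 5 genes with the spaced pair ran from -0.20 for B2m to 0.70 for H2-M3. A match describes the sequence and says nothing of binding. Only exact matches were searched, so a gene without a match may still hold a variant of either motif.

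The genes that make and load class I peptides shared a small difference in 1 direction, and none reached 2-fold. All 10 that reached a mean of 20 had log2 ratios below 0, and all were below the median of all genes (-0.11). Their own median was -0.41. They stayed below 0 under each other scaling, but these scalings were nearly the same shift, with all-gene medians from 0.05 to 0.06. The counting intervals of Tap1 and Psme2 hold 1. Erap1, the aminopeptidase that trims peptides in the endoplasmic reticulum, had 1747 and 1212 reads, 1.38-fold lower (1.28 to 1.49). Tap2, a subunit of the peptide transporter, had 958 and 664 reads, 1.38-fold lower (1.25 to 1.53). Tapbpl, a homologue of tapasin that edits the bound peptides, had 801 and 502 reads, 1.53-fold lower (1.37 to 1.72), the furthest of the group. B2m, the light chain, had 1338 and 1117 reads, 1.15-fold lower (1.06 to 1.25). Tap1, the partner of Tap2, had 66 and 52 reads, and its interval of 0.560 to 1.20 holds 1. Tapbp, tapasin itself, was under the minimum with 21 and 13 reads.

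The immunoproteasome subunits had fewer reads in the knockout relative to the subunits they replace. The proteasome exchanges 3 catalytic subunits for the interferon-inducible Psmb8, Psmb9 and Psmb10, and Psme1 and Psme2 form its activator PA28. Psmb8 had 844 and 548 reads, 1.48-fold lower (1.33 to 1.65). Psmb9 had 499 and 358 reads, 1.34-fold lower (1.17 to 1.54), and Psmb10 had 998 and 726, 1.32-fold lower (1.20 to 1.45). Their constitutive counterparts were nearly level, with 560 and 564 reads for Psmb5, 673 and 616 for Psmb6, and 810 and 737 for Psmb7. Within a library the scaling cancels: reads of Psmb8 over Psmb5 went from 1.51 in the wild type to 0.972 in the knockout, 1.55-fold lower (1.32 to 1.82). The ratio of Psmb9 to Psmb6 was 1.28-fold lower (1.07 to 1.52), and that of Psmb10 to Psmb7 1.25-fold lower (1.09 to 1.44), intervals that again cover counting error only. Psme1 was at 1115 and 929 reads, for a ratio of 0.868 (0.795 to 0.948). Psme2 had 76 and 58 in its higher row, a ratio of 0.795 with an interval (0.555 to 1.13) that holds 1. Of 16 constitutive proteasome genes none was called, and their log2 ratios ran from -0.23 to 0.07 with a median of -0.08.

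**Figure D2:**
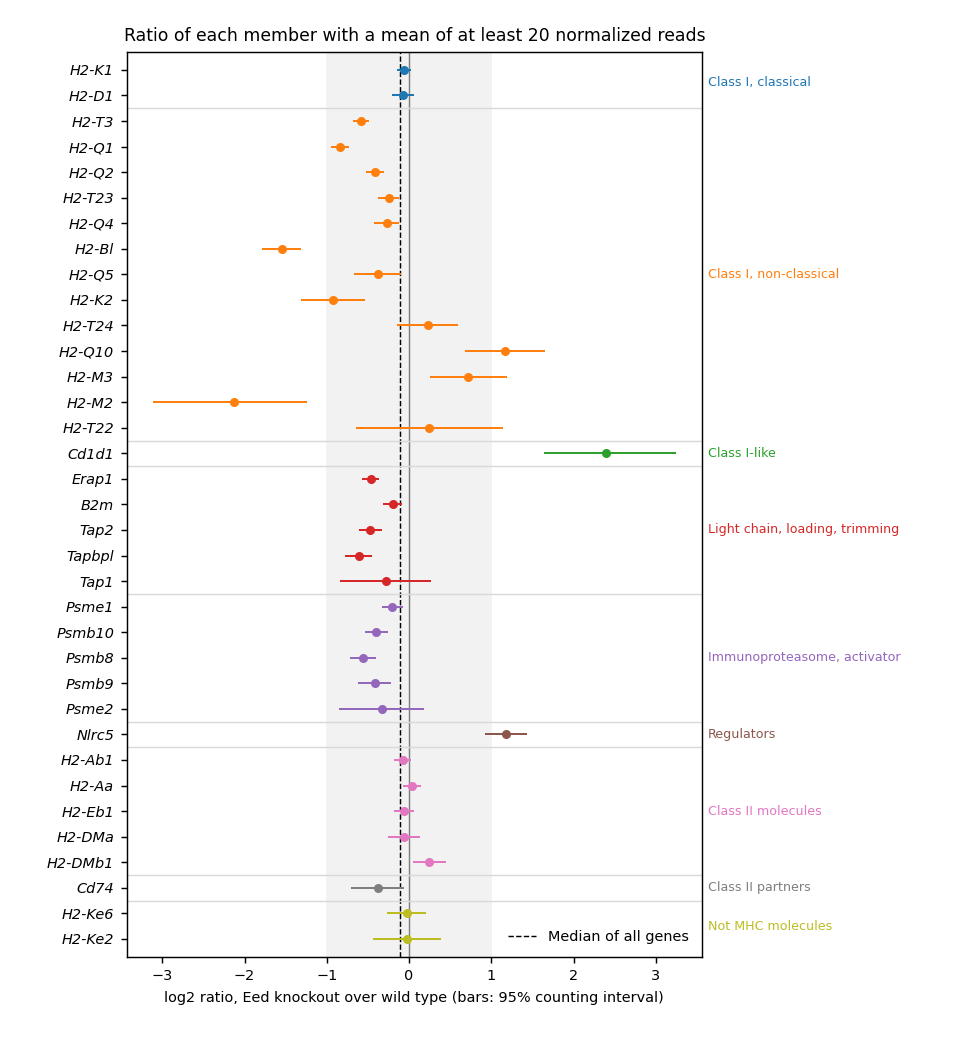
Log2 ratio of reads, Eed knockout over wild type, for the 35 members that reached a mean of 20 normalized reads, with exact 95% counting intervals as bars, a grey band for less than 2-fold and a dashed line at the median of all genes. All 10 class I processing genes lie to the left of 0, class II molecules lie around it, and non-classical class I molecules lie on both sides.

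The non-classical class I genes had the widest spread. Of 13 with a mean of at least 20, 2 were called lower and 1 higher, with a median log2 ratio of -0.38. H2-Bl, annotated by RefSeq as a transcribed pseudogene, had 628 and 206 reads and was 2.93-fold lower (2.50 to 3.44). H2-M2 had 59 and 13 reads and was 4.35-fold lower (2.36 to 8.66), at a depth that leaves a wide interval. H2-Q10, known as a secreted molecule made mainly in the liver, had 54 and 116 reads and was 2.24-fold higher (1.61 to 3.15). The abundant members of the group stayed within 2-fold. H2-T3, the thymus leukaemia antigen, which intestinal epithelial cells display and which binds CD8αα on intraepithelial lymphocytes, had 2044 and 1309 reads, 1.5-fold lower (1.40 to 1.61). H2-Q1 had 2121 and 1137 reads, 1.79-fold lower (1.66 to 1.93), and H2-Q2 had 1635 and 1175, 1.34-fold lower (1.24 to 1.44). H2-T23, which encodes Qa-1, a ligand of the inhibitory receptor NKG2A, had 1182 and 954 reads, a ratio of 0.841 (0.772 to 0.917). H2-Q4 was at 788 and 626 reads.

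The remaining non-classical genes were less abundant. H2-M3, which presents bacterial peptides that begin with N-formylmethionine, had 64 and 101 reads, a ratio of 1.64 (1.19 to 2.29). H2-T22, a ligand of γδ T cells, had 22 and 25 reads, and H2-T24 had 115 and 129, both with intervals that hold 1. The transcribed pseudogenes H2-Q5 and H2-K2 had 240 and 177, and 168 and 85 reads. H2-T10, H2-Q8, H2-M5, H2-M10.2 and H2-M10.6 had 4 reads or fewer in each library, and no difference was detectable at this depth. All 14 other class I genes that reached the minimum were also set against H2-K1 in the same library, a reference chosen after the values were seen, which removes the scaling. The counting interval of the ratio lay below 1 for 9 of them, above 1 for 2 (H2-M3 and H2-Q10) and held 1 for 3 (H2-D1, H2-T22 and H2-T24). Relative to H2-K1, H2-T3 was 1.43-fold lower (1.31 to 1.57), H2-Q1 1.71-fold (1.56 to 1.88), H2-Q2 1.27-fold (1.16 to 1.40) and H2-T23 1.14-fold (1.02 to 1.26).

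H2-Bl and H2-T3 belong to a run of neighbouring genes in which every tested gene had a log2 ratio below 0, under each scaling. In the RefSeq order of chromosome 17, the 10 genes with a row from Gm6034 to H2-T3 include 9 with a mean of at least 20, of which 8 were at least 1.5-fold lower, where 13.1% of all genes tested were. Their log2 ratios ran from -1.54 to -0.58, with a median of -1.0, while the other 103 tested genes of the MHC region had a median of -0.08 and 14 of them were 1.5-fold lower. With libraries scaled to their totals, 5 of the 9 and 9 of the 103 were 1.5-fold lower, with medians of -0.82 and 0.10. Gm8909 had 1388 and 858 reads, 1.55-fold lower (1.42 to 1.69), Gm7030 had 69 and 28, 2.36-fold lower (1.5 to 3.81), and Gm6623 had 67 and 28. RefSeq lists older names of the H2- type for Gm6034, Gm7030 and Gm8909, which the rule by symbol left out. The genes that flank the run, H2-T22 and Rpp21, had log2 ratios of 0.23 and -0.19. The run was chosen after its values were seen, and neighbours in it are related copies, so shared reads may tie their values together, which was not tested. Over the whole region, 86 tested genes that are not members had a median log2 ratio of -0.17, against -0.11 over all genes tested. Of the 86, 5 were called higher and 6 lower, where 11.2% and 3.58% of all genes tested were.

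**Figure D3:**
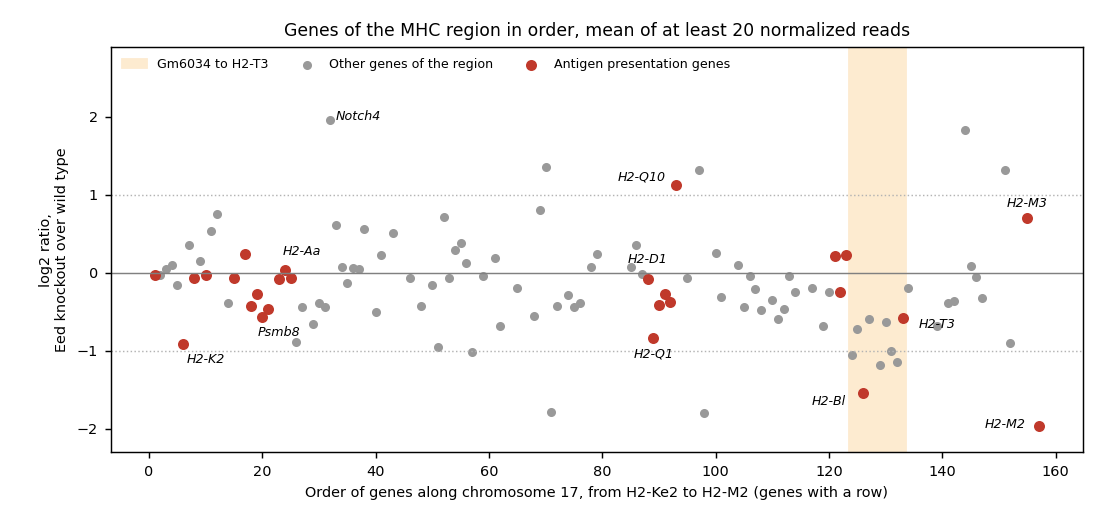
Log2 ratio, Eed knockout over wild type, of every gene that reached a mean of 20 normalized reads, in its order along chromosome 17, with antigen presentation genes as large points and other genes as small ones. In the shaded run from Gm6034 to H2-T3 every point lies below 0, from -1.54 to -0.58 in the authors' scaling, whereas the class II genes near H2-Aa lie close to 0.

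The class I-like Cd1d1 had the highest ratio of all tested members. Cd1d1, which presents lipids to natural killer T cells and is known from gut epithelium and from myeloid cells, had 17 and 86 reads, 5.27-fold higher (3.11 to 9.47). Mr1, which presents bacterial vitamin B metabolites to MAIT cells, was under the minimum with 4 and 15 reads, a ratio of 3.91 (1.25 to 16.2). Among myeloid markers, Lyz2 had 27 and 230 reads and Csf1r 28 and 94, both called higher, and Emr1, under the minimum, had 5 and 27. Cd68 had 32 and 30 reads, and the intervals of Itgax and Itgam also hold 1. The part of myeloid cells in the Cd1d1 difference was not tested. Per kilobase, Cd1d1, which has 5 RefSeq accessions, stood at 8.56 and 45.1 normalized reads in the 1 row used.

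Nlrc5 and Rfx5, regulators of MHC transcription, were called higher, while most other regulators had log2 ratios below 0. Nlrc5, the transactivator of class I genes, had 185 and 401 reads and was 2.26-fold higher (1.89 to 2.70). Rfx5, the DNA-binding subunit of the RFX complex, had 179 and 477 reads and was 2.78-fold higher (2.33 to 3.32), the 1 gene called in a list of 12 tested regulators that does not include Nlrc5. Ciita, the transactivator of class II genes, had 6 and 7 reads, a ratio of 1.22 (0.350 to 4.38) that this depth cannot place. The median log2 ratio of the 12 was -0.31, against -0.11 over all genes tested. Of the 12, 9 were below 0, as were 59.8% of all genes. With libraries scaled to their totals, 43.8% of all genes were below 0. How many of the 12 regulators stay below 0 under that scaling was not tested. Irf2, an interferon regulatory factor, had 1121 and 675 reads, 1.59-fold lower (1.45 to 1.76). The interferon-γ receptor genes Ifngr1 and Ifngr2 had 1290 and 1037, and 1842 and 1347 reads. Irf1, an interferon regulatory factor that interferon-γ induces, had 33 and 23 reads, with an interval that holds 1. Jak2, the kinase of that receptor, had 49 and 29 reads. Rfxank had 11 and 0 reads, a mean under the minimum.

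Class II molecules were level between the libraries. None of 5 tested was called, and their median log2 ratio was -0.06, which turned to 0.12 when libraries were scaled to their totals. H2-Aa and H2-Ab1, the chains of the I-A molecule, had ratios of 1.02 (0.95 to 1.11), from 1363 and 1340 reads, and 0.947 (0.879 to 1.02), from 1490 and 1354 reads. H2-Eb1, the β chain of I-E, had 1216 and 1116 reads, a ratio of 0.957 (0.881 to 1.04). C57BL/6 mice are known to lack a working α chain for it, and H2-Ea was not analysed here. The chains of the peptide exchanger DM were also within 2-fold, with 450 and 414 reads for H2-DMa and 376 and 428 for H2-DMb1, whose ratio was 1.19 (1.03 to 1.37). H2-Oa and H2-Ob, which inhibit DM and are best known from B cells, had 2 and 3 reads each, and H2-DMb2 had 0 and 1. Relative to H2-K1 in the same library, the ratio of H2-Aa was 1.07 (0.974 to 1.18).

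Leukocyte markers summed to fewer reads than class II molecules. The 8 class II molecules summed to 4799 and 4756 normalized reads, and the 21 leukocyte markers to 607 and 1082. These sums are over different genes and are not corrected for transcript length, so they do not compare amounts of cells. Per kilobase of transcript, H2-Aa stood at 1184 and 1213 normalized reads. The B cell gene Ms4a1 had 7 and 12 reads. The T cell genes Cd3e and Cd3g had 82 and 79, and 112 and 84 reads. Cd4 had 7 and 25 and Cd8b1 7 and 29, both under the minimum with intervals above 1. Itgax, a marker of dendritic cells, had 37 and 53 reads. Laptm5 had 86 and 139 reads, Coro1a 92 and 134, and Cd52 23 and 41, within 2-fold but with intervals above 1. Of 11 tested leukocyte markers, 3 had log2 ratios below 0. Lyz2 and Csf1r were the 2 leukocyte genes called, both higher. Itgam had 0 and 1 reads. The share of class II reads that comes from leukocytes was not tested.

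Cd74, the invariant chain that escorts class II molecules, was at 194 and 143 reads, for a ratio of 0.768 (0.615 to 0.958). The protease Ctss, cathepsin S, which trims that chain, had 6 and 3 reads. Cd74 thus stood at 135 and 104 normalized reads per kilobase, where H2-Eb1 stood at 714 and 683. Levels tended to be lower for genes with several RefSeq accessions. Over the whole table, genes with 1 curated accession had a median of 48.0 normalized reads per kilobase and genes with 2 or more 17.2. Of the members, 28 with 1 accession had a median of 539 normalized reads and 18 with 2 or more had 56.5. Tap1, with 2 accessions, stood at 21.9 normalized reads per kilobase in the wild type, while Tap2, with 1, stood at 273. The relation was loose. Among folding factors with 2 or more accessions, Hspa5 had 31 and 33 reads and Canx 34 and 35, but Ganab had 3319 and 3052 and Pdia4 1425 and 1823, and H2-K1, H2-Q1 and H2-Q2, with 2 accessions each, were among the members with the highest levels. How reads shared by several transcripts of a gene were counted was not given in the sources used here, so levels of Cd74, Ctss, Tap1, Tapbp, Ciita, Cd1d1 and Mr1 may stand below those of their genes. The same limit applies to the leukocyte markers Itgam, Itgax, Emr1 and Ptprc, which also have 2 or more accessions.

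At the other end of the scale, some members had so many reads per base that differences may be compressed. B2m had 1.56 reads per base of transcript in the wild type and H2-K1 1.47, where the 99th percentile of all genes was 1.22 and 1 gene of the table exceeded 2. H2-Q2 had 1.30, H2-Ab1 1.23 and H2-Aa 1.21. Assuming that no more than 2 reads per base could be counted, and correcting for it (a choice made after seeing the data), the log2 ratio of B2m went from -0.20 to -0.46, that of H2-Q1 from -0.84 to -1.11, which is past 2-fold, and that of H2-K1 from -0.07 to -0.19. H2-Aa stayed at 0.02.

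Other genes of the pathways showed few differences of 2-fold. Folding factors of the endoplasmic reticulum were level or slightly above, with a median log2 ratio of 0.14 and none of 7 called. Among them Pdia4, a disulphide isomerase, had 1425 and 1823 reads and Uggt1, the glycoprotein folding sensor, 2166 and 2705. Calr, calreticulin of the class I loading complex, had 2654 and 2688 reads, and Pdia3, its partner in that complex, 2465 and 2676. None of 7 other cytosolic and membrane peptidases was called, and their median was -0.28, with 2288 and 1657 reads for the aminopeptidase Npepps. None of 9 endosomal genes was called. Ctsh, a cathepsin, was at 584 and 819 reads, for a ratio of 1.46 (1.31 to 1.63), and Ifi30, the thiol reductase of antigen processing, 1031 and 728, a ratio of 0.736 (0.668 to 0.810). H2-Ke2 and H2-Ke6 carry the H2- prefix but encode no MHC molecule. The first is the chaperone subunit RefSeq calls Pfdn6, with 103 and 97 reads, and the other a steroid dehydrogenase, with 316 and 297.

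**Figure D4:**
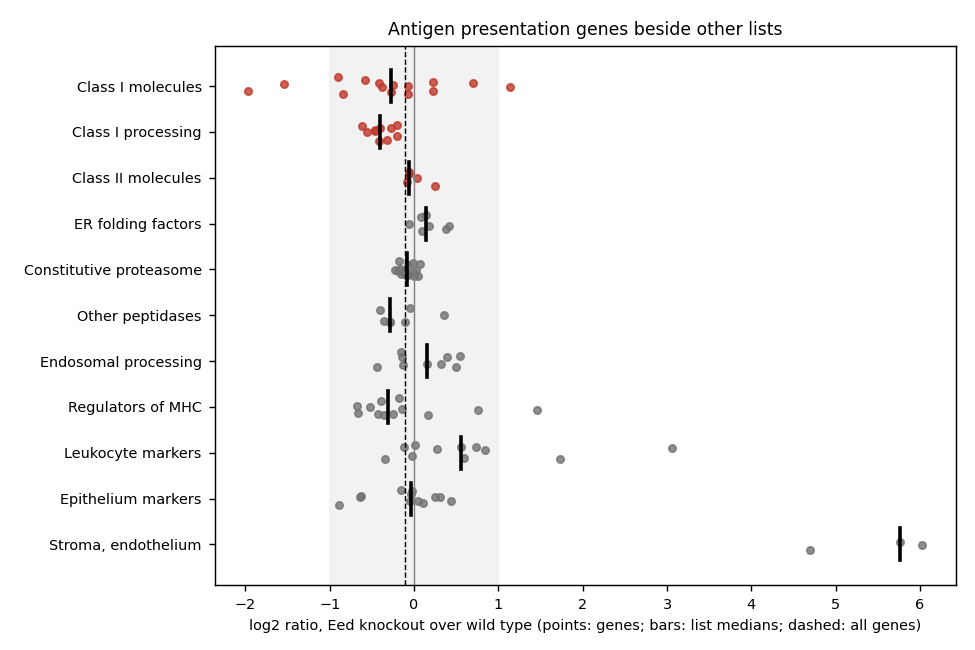
Log2 ratio, Eed knockout over wild type, of each gene reaching a mean of 20 normalized reads in the class I, processing and class II groups and in 8 other lists, with a bar at the median of each list, a grey band for less than 2-fold and a dashed line at the median of all genes. The class I processing genes form a narrow group at a median of -0.41, and the constitutive proteasome genes lie around -0.08. The 3 stroma markers plotted, all collagens, lie far to the right. Leukocyte markers lie mostly to the right, with 3 of 11 below 0.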

How the data were processed

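Per the submitters' processing notes, TopHat, DESeq and the build mm9 were used, without versions. Per the labels' protocols, a TruSeq RNA v2 kit was used on total RNA. Read counting, strand setting and duplicate handling: not given in the sources used here. Deposited was 1 table by the authors, with 18766 RefSeq transcript rows and 1 column of normalized signal per library. Within a tolerance of 1e-06, 100% of the values were whole multiples of the lowest value of their column, and no row was at the lowest value in both columns, so the reads printed are these multiples minus 1, on the inference of 1 added read. The deposited ratio (fold change), its log2 and the p-values are the authors' own.

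Members, lists and rules were chosen with earlier results of these data known. H2-K2 was placed with the class I molecules. Log2 ratios used a pseudocount of 1, a minimum mean of 20 and a threshold of 2-fold. Intervals (95%, Clopper-Pearson, exact) condition on each gene's summed reads. Without molecular identifiers PCR reads are not independent, and the intervals cover counting error only. The named genes are every member with a mean of at least 20, members under it by count or reads, and up to 4 genes per other list by the size of their ratio; other genes named were chosen after their values were seen. Rows were joined by accession to RefSeq GRCm38.p6 (98.6% of rows), used for names, gene order and promoter sequences, and to GENCODE vM21 transcript lengths (97.7%; 46 of 48 members). A binomial test (exact, Benjamini-Hochberg adjusted, 0.05) of recovered reads, added after seeing the data, compares the 2 libraries and not the genotypes; it called 2464 of 10879 genes higher and 4036 lower. Longer promoter motifs of interferon and NF-κB type were also searched and are not reported here. The functions were tested on simulated data. Tools were Matplotlib 3.10.9, SciPy 1.17.1, pandas 2.3.3, NumPy 2.4.6 and Python 3.11.15.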

Additional observations from a re-analysis of the deposited data

How the results depend on the processing

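With 1 library per genotype nothing here measures variation between animals, and genes with few reads have wide intervals. The authors' scaling put the median log2 ratio of all genes at -0.11; scaling to library totals moved it to 0.06 and members with it, so that 7 (H2-K1, H2-D1, H2-Ab1, H2-Eb1, H2-DMa, H2-Ke2 and H2-Ke6) turned above 0, while the median of class I processing genes went from -0.41 to -0.23 and that of class I molecules from -0.27 to -0.10. No called member changed direction under any alternative. For the filters, pseudocounts and scalings this was fixed in advance. Filters and pseudocounts cannot change a sign, and the scalings shift ratios by far less than the log2 ratio of 1 needed for a call. Of 343 recomputed member ratios 287 stayed inside their counting interval, but this count includes the filters, which leave a ratio unchanged. Under each of the other scalings, 17 members moved outside their interval and 18 stayed inside. With the assumed ceiling, 5 moved outside and 30 stayed inside. Without a filter, 5 of 48 members were 2-fold higher (10.4%, against 16.4% of all genes), 2 other pathway genes lower and 11 non-member genes of the MHC region higher. With a minimum mean of 100, 1 of 28 members was higher and 1 lower (3.57% each, against 5.88% and 3.04% of all genes), and in the region 3 were higher and 1 lower. At 1.5-fold, 4 members were higher and 5 lower (11.4% and 14.3%, against 16.9% and 13.1% of all genes), 2 other pathway genes higher and 2 lower, and 9 genes of the region higher and 18 lower. The 6 lower genes of the region became 2 with a pseudocount of 10, 3 under each of the other scalings (library totals, upper quartile, median of 0) and 11 with the assumed ceiling. The exact binomial test, which compares the 2 libraries, called 5 members higher and 18 lower (14.3% and 51.4%, against 22.6% and 37.1% of all genes), 9 other pathway genes higher and 18 lower, and 13 genes of the region higher and 33 lower. Where these counts moved with a filter, threshold or test, the change follows from which genes are tested or how small a difference is called; for the pseudocount and scalings the cause was not tested. No paired analysis was possible because each genotype has 1 library.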

Other observations

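Other genes with a class I fold outside the list were looked at after the data were seen. Of 15 such genes 11 had a row and 3 a mean of at least 20. Azgp1, a secreted zinc-binding glycoprotein, had 3 and 61 reads and was higher, with a ratio of 21.2 (6.92 to 106). Fcgrt, the receptor that carries immunoglobulin G across epithelia, had 1004 and 551 reads, a ratio of 0.572 (0.515 to 0.635) that did not reach 2-fold. Hfe, which helps to regulate iron uptake, had 56 and 76 reads. Raet1a, which encodes a ligand of the activating receptor NKG2D, was under the minimum with 4 and 31 reads, 8.08-fold apart (2.86 to 31.5). The other NKG2D ligand genes with a row had 0 wild-type reads, with 8 knockout reads for Raet1e, 6 for H60b, 6 for H60c and 1 for Raet1d. Copies of the Raet1 family are alike, so the division of their reads is uncertain.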
